A study of Homo sapiens with 9 samples.

Results

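Enzymes that make or reduce androgens were described at the level of their transcripts in 22Rv1, a human prostate carcinoma line with androgen receptor. The 10 members were chosen by gene symbol from the 60623 genes of the deposited tables: AKR1C1, AKR1C2, AKR1C3, HSD17B4, HSD17B10, HSD17B11, SRD5A1, SRD5A3, HSD3B1 and CYP17A1. In all cells the endogenous PDCD4, an inhibitor of translation initiation, had been knocked down with a short hairpin RNA, and 1 of 3 forms of the protein was put back. In S239D a serine is replaced by aspartate, which mimics a phosphate, in S239A the same serine is replaced by alanine, which cannot be phosphorylated, and WT is the unchanged protein. The study asks about enzalutamide resistance and the phosphorylation of PDCD4 by the kinase PLK1. There were 3 libraries per form and 9 in total, of 5696840 to 9688577 counts. PDCD4 itself had 16.8, 17.1 and 17 CPM in S239D libraries, 19, 23.1 and 25 CPM in S239A libraries and 24.1, 24.9 and 20.4 CPM in WT libraries, and was lower in S239D than in WT (log2 fold change -0.44, edgeR adjusted p = 0.0164) and than in S239A (-0.40, adjusted p = 0.0245). Reads of the endogenous and the rescue transcript were not separated in these counts, and the part of the PDCD4 level in the results was not tested. The labels name no drug treatment, and knockdown cells without a rescue form were not analysed here. Whether libraries of a form are separate cultures is not stated in the labels, so p-values reflect only the spread among these samples and that spread may be technical.

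Androgens are made from cholesterol by a chain of enzymes. CYP17A1 cleaves the side chain of pregnane steroids to give DHEA and androstenedione, and HSD3B1 converts delta-5 steroids such as DHEA to delta-4 steroids. Reductases of the AKR1C and HSD17B families interconvert 17-keto and 17-hydroxy steroids, and 5-alpha-reductases (SRD5A) turn testosterone or androstenedione into 5-alpha-reduced androgens such as dihydrotestosterone. In castration-resistant prostate cancer, conversion of adrenal precursors inside the tumour is known to sustain androgen receptor signalling, and AKR1C3 is the family member most studied in resistance to enzalutamide and abiraterone. HSD17B4, HSD17B10 and HSD17B11 mainly oxidise their steroid substrates, and HSD17B4 and HSD17B10 also act in fatty acid breakdown.

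In S239D cells 4 of the 8 enzyme genes with enough reads to test were lower than in WT cells: HSD17B11, AKR1C3, SRD5A3 and HSD17B4, by 23.1% to 43.6%. Of all 16213 genes tested 41.4% were called in that comparison, 21.7% as lower. The S239D cells also had lower levels of the same 4 genes than S239A cells, and of SRD5A1, whose difference was close to the threshold, where 43.6% of all genes were called. Between S239A and WT cells no difference of the 8 passed the test, where 1 of all 16213 genes (0.00617%) was called. The upstream members HSD3B1 and CYP17A1 were at or near 0 counts in all 9 libraries.

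**Figure D1:**
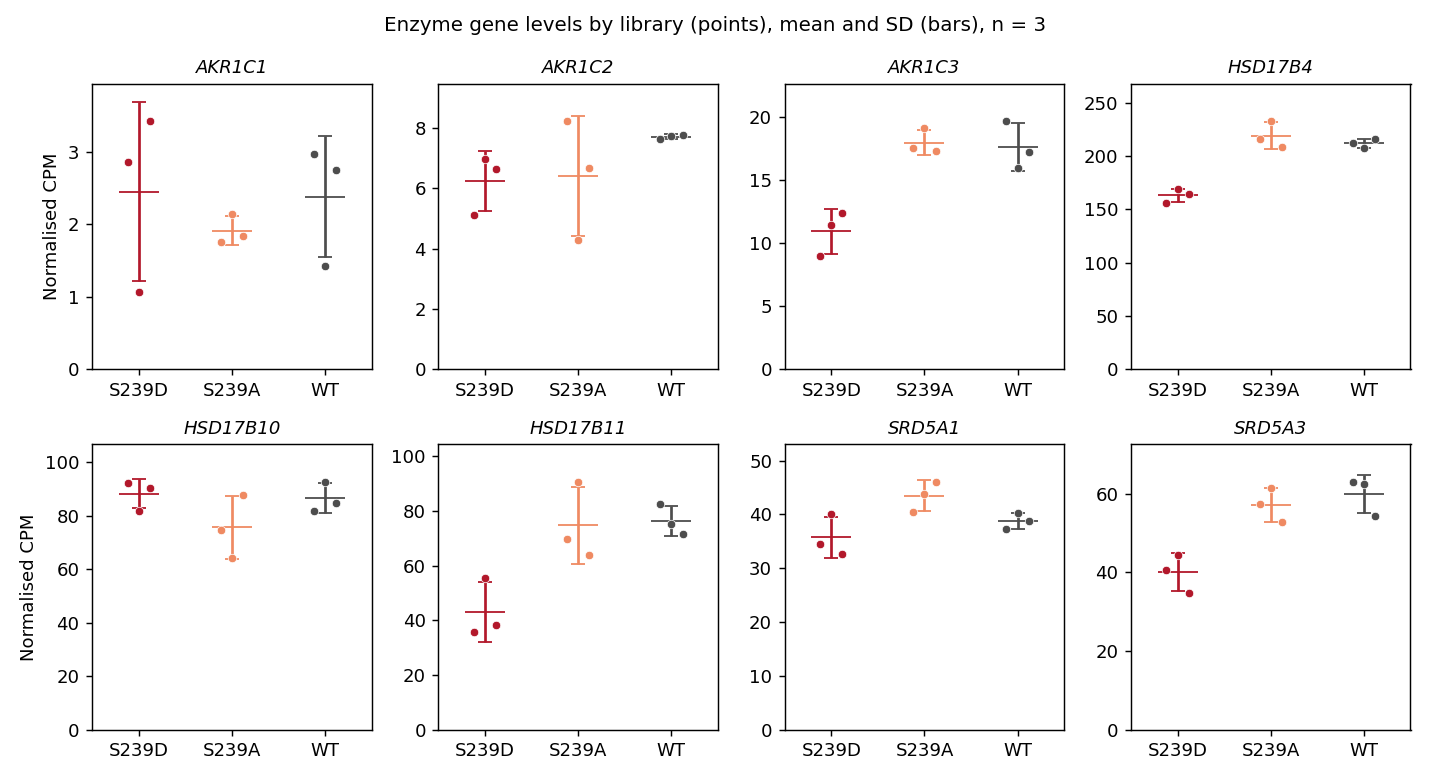
Normalised CPM (counts scaled to a common library size, vertical axis) of the 8 tested enzyme genes in S239D, S239A and WT cells; points are libraries, bars the mean and SD of 3 libraries. In HSD17B11, AKR1C3, SRD5A3 and HSD17B4 every S239D point lies under every point of the other groups, whereas AKR1C1 and HSD17B10 overlap between groups. The share of all genes that separate in this way was not counted. Of all 16213 tested genes, 41.4% were called in S239D against WT, so such separation is not particular to these enzymes.

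In the count table, whose genome build is not stated in the sources used here, HSD17B11 lies on chromosome 4 at bases 87336515 to 87391188, SRD5A3 on chromosome 4 at 55346242 to 55373100, HSD17B4 on chromosome 5 at 119452473 to 119637199 and SRD5A1 on chromosome 5 at 6633427 to 6674386. The AKR1C genes are neighbours on chromosome 10, where CYP17A1 also lies, HSD17B10 is on X and HSD3B1 is on chromosome 1.

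The upstream members, HSD3B1 and CYP17A1, were not detected at this depth beyond single counts. HSD3B1 had 0 counts in every library, and a floor of 3 counts corresponded to 0.307 to 0.527 CPM. CYP17A1 had 1 count in S239D replicate 3, 0 in all S239A libraries and 1 in WT replicate 3. Its locus overlaps WBP1L on the opposite strand, which had up to 442 counts, and the strandedness of the libraries is not given. Of other genes of the pathway, STAR (the cholesterol carrier), CYP11A1 (side-chain cleavage), HSD3B2, HSD17B2, HSD17B3, SRD5A2, AKR1C4 and CYP19A1 (aromatase) also failed the filter on low counts, and these 8 had at most 7.72 expected counts in any single library. RDH16, a dehydrogenase of retinol and steroids, failed it too, with up to 20 counts in a library.

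Among the detected enzymes, HSD17B4 and HSD17B10 had the highest levels per transcript length in WT cells. TPM, transcripts scaled by length and library, gave this order. HSD17B4 averaged 230.3 ± 77.9 TPM and HSD17B10 averaged 171 ± 12.4 TPM (SD, n = 3), and their ranges overlapped. HSD17B11 followed at 71.3 ± 3.9 TPM. SRD5A1 averaged 31.5 ± 4.05 TPM, SRD5A3 averaged 28.8 ± 3.66 TPM and AKR1C3 averaged 25.8 ± 2.79 TPM, and neighbours in that order overlapped. AKR1C2 averaged 11.4 ± 1.81 TPM and AKR1C1 averaged 2.66 ± 1.76 TPM.

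AKR1C3, which reduces androstenedione to testosterone and also makes prostaglandin F, carried most of the AKR1C transcripts. In the AKR1C family, at chromosome 10 bases 4963253 to 5107686, reads of AKR1C1 and AKR1C2 cannot be separated with certainty because the coding sequences are near-identical. Over 972 coding bases AKR1C1 and AKR1C2 differed at 19 positions, an identity of 98%, with an identical run of 189 bases, and 478 of 923 windows of 50 bases matched. AKR1C1 and AKR1C3 differed at 79 positions, and AKR1C2 and AKR1C3 differed at 85. In the 50-base windows of all GENCODE transcripts, 28.6% of AKR1C1 windows and 38.9% of AKR1C2 windows occurred in another gene, against 4.53% for AKR1C3. Coding bases 103 to 162, counted from the start codon and ending with codon 54, are printed to show how the copies differ. Of all 60-base coding windows this one was chosen for the most differences between AKR1C1 and AKR1C2. It holds 10 of their 19 differences, against 7 between AKR1C1 and AKR1C3, so it does not represent the whole coding sequence. The printed bases come from GENCODE transcripts, and capitals mark positions at which AKR1C1, AKR1C2 and AKR1C3 are not all the same. The residue of the last codon is known to help set the steroid position at which AKR1C1 and AKR1C2 act.
AKR1C1: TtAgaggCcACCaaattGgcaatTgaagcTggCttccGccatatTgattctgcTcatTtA
AKR1C2: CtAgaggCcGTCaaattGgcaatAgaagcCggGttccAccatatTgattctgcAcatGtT
AKR1C3: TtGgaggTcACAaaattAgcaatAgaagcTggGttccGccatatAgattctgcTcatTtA

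AKR1C3 had 8.94, 11.5 and 12.4 CPM in S239D libraries, 17.5, 19.1 and 17.3 CPM in S239A libraries, and 19.7, 15.9 and 17.2 CPM in WT libraries. All S239D libraries were under all others, and S239A and WT overlapped. AKR1C3 fell by 38.1% in S239D cells against WT cells (log2 fold change -0.69, SE 0.15, edgeR adjusted p = 0.00214), and fell by 39% against S239A cells (-0.71, edgeR adjusted p = 0.00151). The S239A cells differed from WT by 0.02 on the log2 scale, with a 95% interval of -0.29 to 0.33 (edgeR adjusted p = 0.982).

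AKR1C2, which inactivates dihydrotestosterone by reducing its 3-keto group, had 5.1, 6.96 and 6.65 CPM in S239D libraries, 8.24, 4.28 and 6.66 CPM in S239A libraries, and 7.64, 7.74 and 7.78 CPM in WT libraries. Although S239D and WT did not overlap, the difference did not pass the test (log2 fold change -0.31, interval -0.80 to 0.17, edgeR adjusted p = 0.285). AKR1C1, which reduces progesterone to a less active metabolite, had 2.86, 1.06 and 3.43 CPM in S239D libraries, 1.76, 2.14 and 1.84 CPM in S239A libraries, and 2.98, 1.42 and 2.76 CPM in WT libraries. These rest on 8.1 to 32.7 expected counts per library, and the groups overlapped. Its log2 fold changes were 0.04 in S239D against WT (interval -0.81 to 0.89) and 0.40 in S239D against S239A (interval -0.47 to 1.26), neither past the test. Summing AKR1C1 and AKR1C2 counts, which does not depend on how reads were divided between them, gave -0.22 in S239D against WT (interval -0.62 to 0.18, edgeR adjusted p = 0.368). With AKR1C3 and AKR1C4 added, the summed family was lower in S239D (log2 fold change -0.48, edgeR adjusted p = 0.00906) than in WT, and lower than in S239A (-0.40, edgeR adjusted p = 0.0221).

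**Figure D2:**
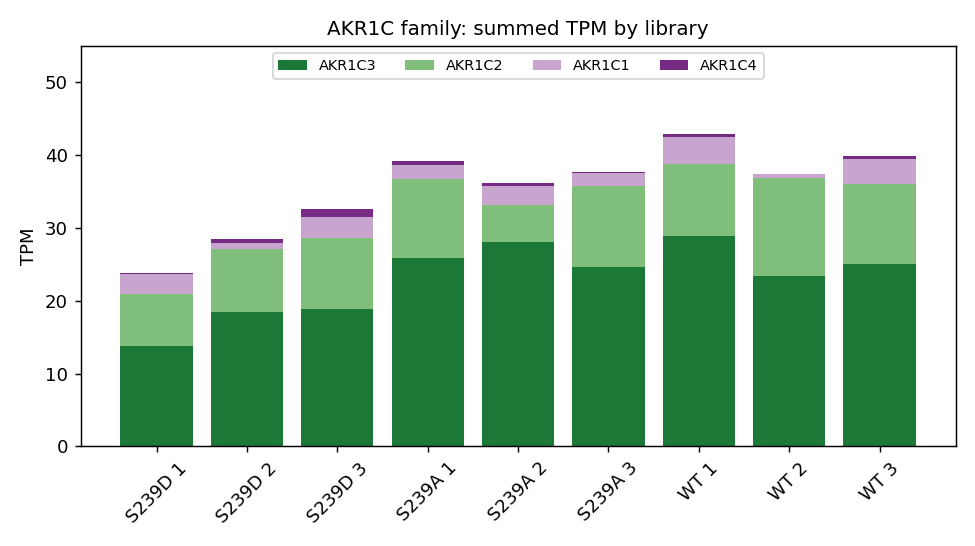
TPM of AKR1C1 to AKR1C4 (vertical axis, stacked) in each library, S239D first. The summed TPM was 23.9 to 32.6 in S239D libraries, 36.2 to 39.2 in S239A libraries and 37.4 to 42.9 in WT libraries, with AKR1C3 the largest block in each.

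AKR1C3 made up 60.2 ± 4.22% of summed AKR1C TPM in S239D cells, 69.7 ± 7% in S239A cells and 64.2 ± 2.65% in WT cells (SD, n = 3), and the sum itself was 28.3 ± 4.34 TPM in S239D, 37.7 ± 1.52 TPM in S239A and 40.1 ± 2.73 TPM in WT cells. The summed level was lowest in S239D libraries, while the share of AKR1C3 overlapped between S239D and WT cells. Against S239A the share did not overlap, at 57.5 to 65.04% in S239D libraries and 65.33 to 77.8% in S239A libraries. The 3 genes closest in pattern to AKR1C3 over the 9 libraries, by root mean square difference of centred log2 CPM, were COBL (0.077), LDLRAD3 (0.082) and ZNF620 (0.082), against a median of 0.402 over 12073 genes. Those closest to AKR1C2 were TMEM69 (0.095), MRPL16 (0.113) and CIAO2A (0.115). Those closest to AKR1C1 were ZNF517 (0.216), CEBPA (0.246) and DHRS4 (0.247).

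HSD17B11, which oxidises androstanediol to androsterone, had 35.6, 55.6 and 38.1 CPM in S239D libraries, 69.9, 90.7 and 63.8 CPM in S239A libraries, and 82.5, 75.2 and 71.5 CPM in WT libraries. The highest S239D library, 55.6 CPM, was still under the lowest of the others, 63.8 CPM. HSD17B11 fell by 43.6% in S239D against WT cells (log2 fold change -0.83, SE 0.16, interval -1.17 to -0.48, edgeR adjusted p = 0.00103), and fell by 42.4% against S239A cells (-0.79, edgeR adjusted p = 0.00121). In S239A against WT it differed by -0.03 (interval -0.37 to 0.30).

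HSD17B4, the peroxisomal multifunctional enzyme that inactivates estradiol and shortens fatty acids, had 156.4, 169 and 164 CPM in S239D libraries, 216.5, 233.2 and 208.5 CPM in S239A libraries, and 212.4, 207.6 and 216.2 CPM in WT libraries. HSD17B4 fell by 23.1% in S239D against WT cells (log2 fold change -0.38, SE 0.077, edgeR adjusted p = 0.00134) and fell by 25.6% against S239A cells (-0.43, edgeR adjusted p = 0.00048). The same gene in deposited TPM gave another picture. TPM was 93.1, 262.6 and 181.1 in S239D libraries, 165.1, 163.6 and 160.2 in S239A libraries, and 312.1, 221.8 and 156.9 in WT libraries. The groups then overlapped, and limma on log2(TPM + 1) gave -0.43 (adjusted p = 0.384, range over the alternatives 9.61e-07 to 0.387) in S239D against WT and 0.01 (adjusted p = 0.984, range 1.1e-06 to 0.985) in S239D against S239A. The length implied by count over TPM varied 2.57-fold between libraries for HSD17B4, a range exceeded by 4.01% of 13823 genes, against a median range of 1.24-fold. GENCODE lists 41 HSD17B4 transcripts of 196 to 5540 bases. AKR1C3 had a range of 1.01-fold, HSD17B10 1.03-fold and HSD17B11 1.14-fold. Ranges above the median were also seen for SRD5A3 (1.28-fold), AKR1C2 (1.54-fold) and SRD5A1 (1.6-fold).

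**Figure D3:**
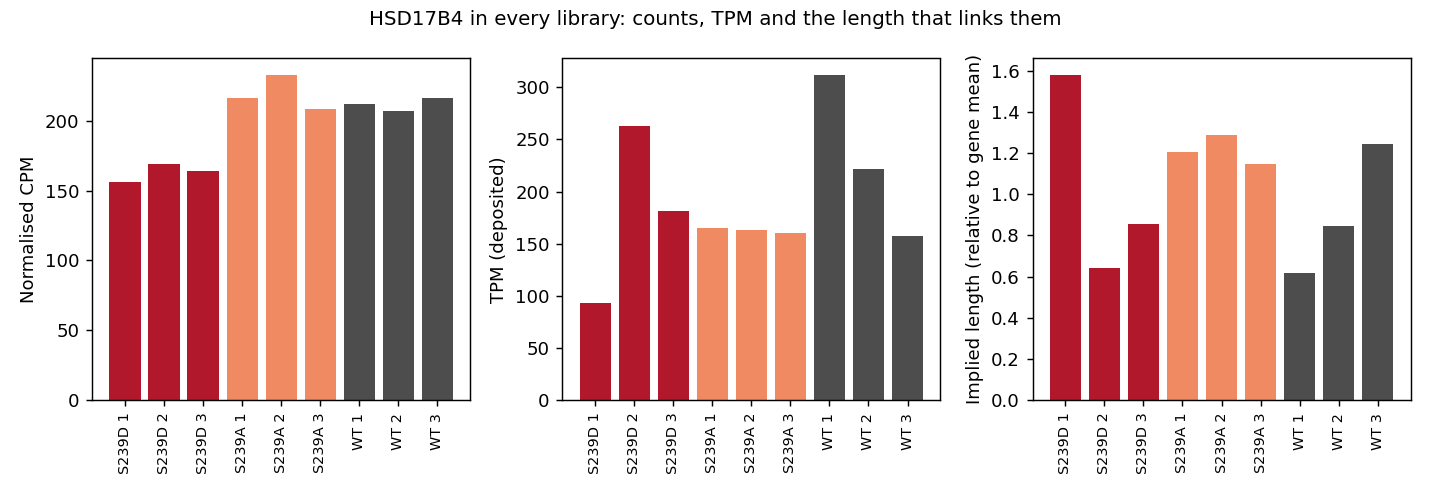
HSD17B4 in each library as normalised CPM (left), deposited TPM (middle) and implied length relative to its mean (right), S239D libraries first. CPM is lowest in the 3 S239D libraries, while TPM is lowest where the implied length is longest within S239D and within WT, which is not so in S239A.

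HSD17B10, a mitochondrial dehydrogenase of steroids and branched fatty acid intermediates, showed no change past the test. It had 92.4, 81.9 and 90.4 CPM in S239D libraries, 74.8, 64.3 and 87.7 CPM in S239A libraries, and 81.8, 92.7 and 84.9 CPM in WT libraries. The S239D values overlapped those of both other groups. The log2 fold change was 0.03 in S239D against WT (interval -0.20 to 0.27) and 0.22 in S239D against S239A (interval -0.01 to 0.46, edgeR adjusted p = 0.118). Without S239A replicate 3 the difference from S239A was 0.34 and was called (edgeR adjusted p = 0.0243, and 0.0243 to 0.35 across the alternatives).

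SRD5A1, the 5-alpha-reductase that predominates in castration-resistant tumours, had 34.4, 40.1 and 32.7 CPM in S239D libraries, 40.5, 43.9 and 46.1 CPM in S239A libraries, and 37.3, 40.2 and 38.8 CPM in WT libraries. It fell by 18% in S239D against S239A cells (log2 fold change -0.29, interval -0.51 to -0.06, edgeR adjusted p = 0.0414). The call held in 6 of 18 alternatives (adjusted p 0.00342 to 0.175), and it ended when any single WT library, S239A replicate 2 or 3, or S239D replicate 1 or 3 was left out (-0.22 to -0.29, adjusted p 0.0579 to 0.175). DESeq2, limma, a fit without a filter and a fit of the 2 groups by themselves did not call it either. Against WT the S239D difference was -0.12 (interval -0.35 to 0.11), and the S239A difference was 0.17 (interval -0.06 to 0.40, edgeR adjusted p = 0.634), with S239A libraries all above WT libraries.

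SRD5A3, which reduces polyprenol in N-glycosylation and is also studied as a steroid reductase, had 40.7, 44.5 and 34.9 CPM in S239D libraries, 57.3, 61.3 and 52.8 CPM in S239A libraries, and 63.1, 62.5 and 54.3 CPM in WT libraries. S239D libraries lay under all others. SRD5A3 fell by 33.3% in S239D against WT cells (log2 fold change -0.58, SE 0.11, edgeR adjusted p = 0.000983) and fell by 30% against S239A cells (-0.51, edgeR adjusted p = 0.00215). With limma on log2(TPM + 1) the fall against S239A was -0.43 and was not called (adjusted p = 0.0653, range over the alternatives 9.23e-05 to 0.0655). An antisense gene at the locus, SRD5A3-AS1, had at most 10 counts in a library.

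**Figure D4:**
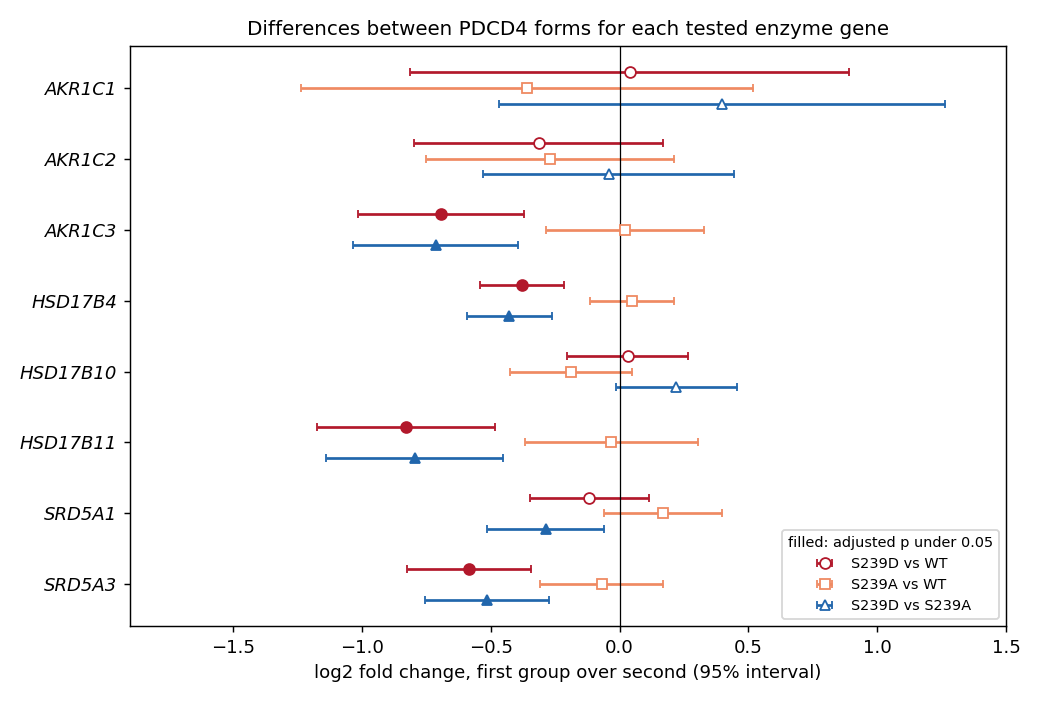
Log2 fold change with its 95% interval (horizontal axis) for the 8 tested genes in S239D vs WT, S239A vs WT and S239D vs S239A. Filled symbols passed an adjusted p of 0.05. In S239A vs WT none is filled, where 1 of all 16213 tested genes was called.

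Taking the set by count, 0 members rose and 4 fell of 8 tested in S239D against WT, where 41.4% of 16213 genes were called, 19.7% as higher and 21.7% as lower. By DESeq2 0 rose and 4 fell, where it called 2872 higher and 3160 lower of 19260 genes. By limma on TPM 0 rose and 3 fell, where it called 2526 higher and 1825 lower of 17363. At an unadjusted p under 0.05 (49.4% of all genes) 0 rose and 4 fell. The median log2 fold change of the members was -0.35, against 0.00075 over all genes. In S239D against S239A 0 rose and 5 fell of 8, where 43.6% were called, 20.9% as higher and 22.7% as lower. There were 0 rises and 4 falls by DESeq2, which called 3035 higher and 3393 lower of 19260 genes. Limma on TPM gave 0 and 2, where it called 2784 higher and 1913 lower of 17363. There were 0 and 5 at an unadjusted p under 0.05 (51.2% of all genes). In S239A against WT edgeR called 0 of 8, DESeq2 0 of 5 and limma 0 of 8, where edgeR called 0.00617% of all genes. DESeq2 called 72 of 6451 genes there, and limma on log2(TPM + 1) called 2 of 17363. At an unadjusted p under 0.05 it was 0 of the 8, against 9.76% of all genes. The comparisons of S239D share the S239D libraries, so their counts are not independent. In S239D cells the share of counts from the mitochondrial genome was 4.72 to 6.01%, against 2.99 to 5.38% in S239A cells and 2.83 to 3.04% in WT cells, and its part in these falls was not tested. All 12 luminal prostate markers were present, with 4237 to 4600 CPM in S239D, 5920 to 6577 in S239A and 5715 to 5831 in WT libraries, and of these 8 fell and 2 rose in S239D against WT. The summed basal, adrenal or gonadal, and leukocyte markers reached at most 1.02, 1.89 and 3.58 CPM in any library. Fibroblast markers summed to 44.1 to 53.5 CPM in S239D, 68.6 to 70.6 in S239A and 61.3 to 72.5 in WT libraries, and the 5 hepatocyte markers to 72.8 to 83.1 CPM in S239D, 15 to 21.3 in S239A and 18.2 to 21.2 in WT libraries. The part of these markers in the falls was not tested. ALB, a liver gene, was 70.1 to 80.7 CPM in S239D libraries, 13.2 to 20.7 CPM in S239A libraries and 16.2 to 18.1 CPM in WT libraries, while CYP3A4 was at 0 and SERPINA1 had at most 1 count. In bulk RNA, fewer cells of a type and less RNA per cell cannot be told apart. Median log2 fold changes in S239D against WT of all tested genes on chromosomes 4, 5 and 10, where the 4 genes lie, were -0.077, -0.04 and 0.02. Tested neighbours within 1 Mb had medians of -0.16 for AKR1C3 (12 genes, of which 3 were called lower and 1 higher), -0.23 for HSD17B11 (13 genes, 1 lower and 2 higher), -0.30 for HSD17B4 (4 genes, 2 lower and 1 higher) and -0.06 for SRD5A3 (8 genes, 3 lower and 1 higher), and the part of the neighbourhood in these falls was not tested.

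Promoters of the 4 genes that fell are given as the 250 bases before the RefSeq start on GRCh38.p14, in lower case with motif matches in capitals. They were searched on both strands for the core of the NRF2 element, TGACNNNGC. The androgen receptor motif searched was AGAACA, which is only a part of the full element. The E-box bound by MYC was CACGTG. The TATA box was searched as TATAAA. The letters of the CCAAT box are its name, and the GC box was searched as GGGCGG. All 10 members matched a window, 3 of them with 2. For AKR1C3 the first window is shown.
AKR1C3, chr10:5048531-5048780, plus strand: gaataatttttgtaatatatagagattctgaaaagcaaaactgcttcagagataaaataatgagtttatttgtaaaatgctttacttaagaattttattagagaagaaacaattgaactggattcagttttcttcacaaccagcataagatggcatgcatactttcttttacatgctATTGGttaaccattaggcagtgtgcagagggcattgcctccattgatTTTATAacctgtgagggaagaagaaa
HSD17B11, chr4:87391189-87391438, minus strand: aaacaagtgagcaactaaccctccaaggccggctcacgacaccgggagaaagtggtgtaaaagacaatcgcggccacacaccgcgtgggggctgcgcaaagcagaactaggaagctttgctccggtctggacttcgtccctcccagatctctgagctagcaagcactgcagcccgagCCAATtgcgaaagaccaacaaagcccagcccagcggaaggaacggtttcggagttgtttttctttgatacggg
SRD5A3, chr4:55345992-55346241, plus strand: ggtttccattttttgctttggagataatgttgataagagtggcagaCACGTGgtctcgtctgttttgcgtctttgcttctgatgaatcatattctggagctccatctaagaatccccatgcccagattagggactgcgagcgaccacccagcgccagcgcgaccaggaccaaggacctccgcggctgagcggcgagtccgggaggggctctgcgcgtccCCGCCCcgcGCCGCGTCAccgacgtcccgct
HSD17B4, chr5:119452247-119452496, plus strand: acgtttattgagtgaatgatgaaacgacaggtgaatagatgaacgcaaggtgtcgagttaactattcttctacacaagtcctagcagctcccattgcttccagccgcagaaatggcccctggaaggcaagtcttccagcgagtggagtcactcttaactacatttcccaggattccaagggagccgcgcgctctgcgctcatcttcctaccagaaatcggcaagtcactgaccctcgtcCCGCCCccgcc

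The AKR1C3 window shown held a TATA box (found in 10.7% of 35116 RefSeq windows of that length) and a CCAAT box (32%), whereas its second window, chr10:5094164-5094413, plus strand, held a CCAAT box and no TATA box. HSD17B11 held a CCAAT box. SRD5A3 held an NRF2 core (10.9%), an E-box (6.34%) and a GC box (42.6%), and HSD17B4 held a GC box. AGAACA, the part of the androgen receptor element that was searched, was in 12.4% of windows and in none of the 4 windows shown. No motif was common to all 4.

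Around the pathway, 7 other lists of 82 genes were counted, of which 57 were tested, 8 rose and 23 fell in S239D against WT, where 19.7% of all tested genes were called as higher and 21.7% as lower. By DESeq2 7 rose and 20 fell of 59, where it called 2872 higher and 3160 lower of 19260 genes, and by limma on TPM 5 rose and 16 fell of 56, where it called 2526 higher and 1825 lower of 17363. The other hydroxysteroid dehydrogenases were near the edgeR shares, with 2 of 11 called in each direction. Of the genes named from these lists, limma did not call AKR7A2, PTGR1, SULT1A1, STS, SLCO2B1, PGD, SLC7A11, ABCC2, NR5A2 and GATA6 (adjusted p 0.0846 to 0.337), and DESeq2 did not call AKR7A2, SLCO2B1, NR5A2 and GATA6 (adjusted p 0.056 to 0.0891). In S239A against WT 0 of 57 were called by edgeR, 0 of 26 by DESeq2 and 0 of 56 by limma. Over all genes edgeR called 1 of 16213, DESeq2 72 of 6451 and limma 2 of 17363. Of the 57, 3 had an unadjusted p under 0.05, against 9.76% of all genes. The lists were chosen with earlier results known and the members share functions, so the counts are descriptions.

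Of 6 tested genes that supply steroids or electrons upstream, 2 fell in S239D against WT. Of all tested genes, 21.7% were called lower and 19.7% higher in that comparison. FDX1, the ferredoxin of mitochondrial P450 enzymes, fell by 0.84 (log2, edgeR adjusted p = 1.42e-05), and CYB5A, which aids the lyase step of CYP17A1, fell by 0.47 (adjusted p = 0.0324). CYB5A was no longer called after omission of any single WT library or of S239D replicate 1 or 3 (-0.50 to -0.41, adjusted p 0.0569 to 0.117). In S239D against S239A it differed by -0.21 and was not called (edgeR adjusted p = 0.315), and the groups overlapped. There it was called in 2 of 18 alternatives. Of 11 other hydroxysteroid dehydrogenases, 2 fell and 2 rose. HSD17B6, which oxidises androstanediol back to dihydrotestosterone, fell by 1.54 (adjusted p = 0.00204) and HSD17B8 fell by 0.77 (adjusted p = 0.000314). HSD17B6 had only 16, 7 and 13 counts in S239D libraries. RDH11 rose by 0.27 (adjusted p = 0.0143) and HSD11B2, which inactivates cortisol, rose by 0.26 (adjusted p = 0.0418). In S239D against S239A both also rose, by 0.33 and 0.37 (edgeR adjusted p = 0.0042 and 0.00577), and were called in all 18 alternatives. Against WT the call held in 15 of 18 alternatives for RDH11 and in 9 for HSD11B2. RDH11 lost it without WT replicate 1 or 3 or S239D replicate 3 (0.26 to 0.27, adjusted p 0.0521 to 0.0556), and HSD11B2 without any single WT library, S239A replicate 1 or 3, or S239D replicate 1 or 3 (0.18 to 0.30, adjusted p 0.0507 to 0.17).

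In S239D against WT, where 21.7% of all tested genes were called lower and 19.7% higher, 5 of 7 other aldo-keto and carbonyl reductases fell. Their log2 fold changes were -1.13 for AKR7A3 and -0.33 for AKR7A2, which reduce aldehydes such as those of aflatoxin, -0.87 for the carbonyl reductase CBR1, -0.56 for the aldehyde reductase AKR1A1 and -0.32 for the prostaglandin reductase PTGR1 (edgeR adjusted p 0.000182 to 0.0393). AKR7A3 had 6.98, 4.55 and 6.09 CPM in S239D libraries, 14.6, 12.7 and 16 CPM in S239A libraries and 12.6, 12.8 and 13.4 CPM in WT libraries. AKR7A2 was not called without WT replicate 1 or 3, S239A replicate 1, or S239D replicate 2 or 3 (-0.33 to -0.22, adjusted p 0.0546 to 0.138), and AKR7A3, CBR1 and AKR1A1 were called in all 18 alternatives. Of 8 tested genes of steroid sulfation and uptake, 4 rose and 2 fell. SULT2B1, a hydroxysteroid sulfotransferase, fell by 2.55 (adjusted p = 6.12e-05), and PAPSS2, which makes the sulfate donor, fell by 0.72 (adjusted p = 0.00143). The size of the SULT2B1 fall rests on 10, 3 and 8 counts in S239D libraries. STS, which removes sulfate from DHEA sulfate, rose by 0.91 (adjusted p = 0.00739), SULT1A1 rose by 0.83, and the organic anion transporters SLCO2B1 and SLCO4A1 rose by 1.45 and 0.70. STS had 6, 6.17 and 9.34 CPM in S239D libraries and 3.47, 3.69 and 4.31 CPM in WT libraries, and was not called without S239D replicate 3 (0.67, adjusted p = 0.0567, range over the alternatives 0.00167 to 0.19). SLCO2B1 also lost its call without that library (1.16, adjusted p = 0.079, range 0.0063 to 0.25), and had only 7, 3 and 9 counts in WT libraries.

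Reductases of this kind use NADPH. Of 8 genes that supply it, 3 fell in S239D against WT, where 21.7% of all tested genes were called lower and 19.7% higher. ME1, the cytosolic malic enzyme, fell by 1.43 (edgeR adjusted p = 4.5e-05), and TALDO1 and PGD of the pentose phosphate pathway had log2 fold changes of -0.39 (adjusted p = 0.00132) and -0.34 (adjusted p = 0.0104). Of 15 NRF2 genes and targets, 7 fell and 2 rose. NQO1, a quinone reductase, had 21.9, 22.2 and 25.8 CPM in S239D libraries, 87.4, 88.1 and 89.3 CPM in S239A libraries and 78.6, 79 and 86.4 CPM in WT libraries, and its log2 fold change in S239D against WT was -1.80. TXNRD1, GCLC, PIR and SLC7A11 also fell (-0.96, -0.94, -1.11 and -0.56), while ABCC2 rose by 0.95, and NFE2L2, which encodes NRF2, differed by -0.12 (interval -0.37 to 0.13). The 2 steroidogenic transcription factors tested fell, NR5A2 with a log2 fold change of -0.67 and GATA6 with -0.34 (edgeR adjusted p = 0.0353 and 0.0256). NR5A2 was not called without WT replicate 1 or 3 or S239D replicate 2 or 3 (-0.74 to -0.51, adjusted p 0.0513 to 0.167), nor GATA6 without any single WT library or S239D replicate 2 or 3 (-0.36 to -0.31, adjusted p 0.0501 to 0.0911).

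**Figure D5:**
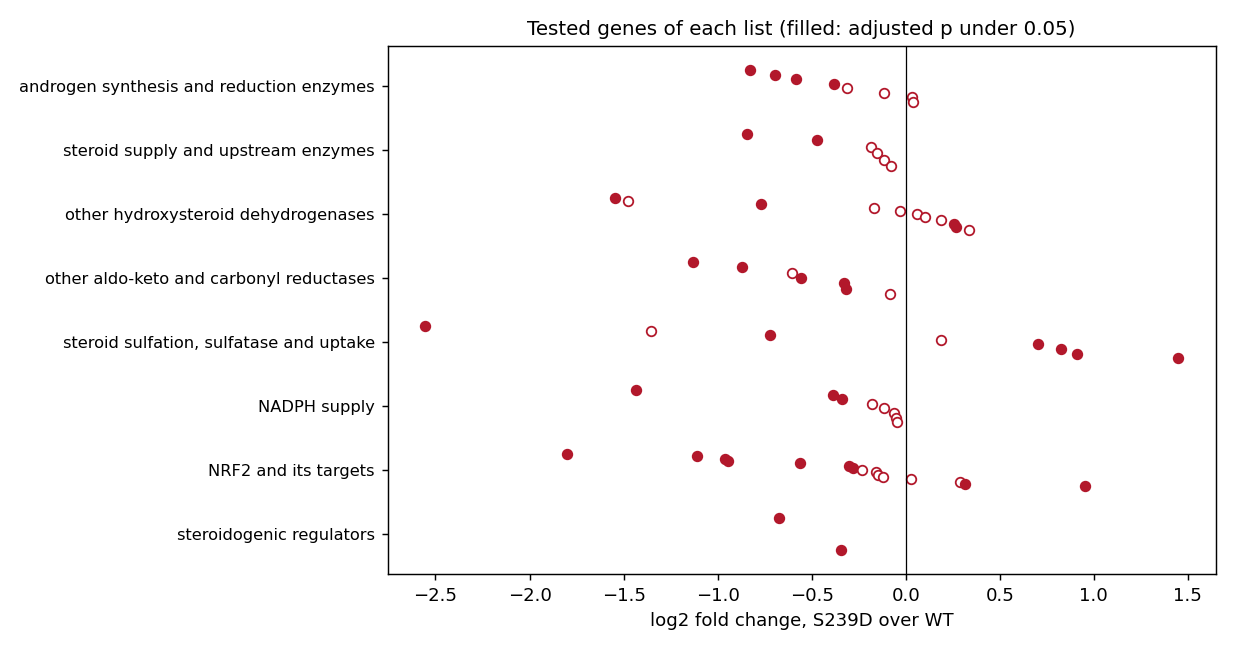
Log2 fold change in S239D over WT (horizontal axis) of each tested gene in the 10-enzyme set and in 7 related lists; filled points passed an edgeR adjusted p of 0.05. The aldo-keto reductase and NADPH lists lie left of 0 throughout, whereas sulfation and uptake genes spread from -2.55 to 1.45.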

How the data were processed

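Poly(A)-selected RNA of 22Rv1 cells was sequenced in 9 libraries, 3 per PDCD4 form, grouped by the genotype label. Expected counts per gene, which the authors deposited unscaled between libraries, were estimated with RSEM; the authors also deposited TPM, scaled within each library and by transcript length. The submitters' processing notes name Trimmomatic 0.39 and RSEM. The aligner, genome build, annotation and strandedness are not given in the sources used here. Of the values, 3.81% were not whole numbers, and all were rounded.

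Counts (60623 genes, 5696840 to 9688577 per library) were scaled by TMM, filtered with filterByExpr to 16213 genes and tested two-sided in a single model of the 9 libraries, with the quasi-likelihood F test of edgeR 4.0.16 (R 4.3.3). P-values were adjusted over all tested genes by Benjamini-Hochberg and called at 0.05. CPM are TMM-normalised. A floor of 3 counts covers counting error only. The code was tested on simulated data with known changes.

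Alternatives were RLE scaling, DESeq2 1.42.0, limma 3.58.1 on log2(TPM + 1) and log2(TPM + 0.1) where 3 libraries reached 1 TPM, all genes unfiltered, genes reaching 1 CPM in 6 libraries, a fit of each pair of groups by itself, a block for replicate number, merged AKR1C counts, and libraries left out. Deviations of same-numbered S239D and S239A libraries from their group means correlated weakly (0.100, 0.251 and 0.103). WT replicates 1 and 3, S239A replicates 1 and 2, and S239D replicates 2 and 3 were most like a library of their own number. WT replicate 2 was not, and S239A replicate 3 and S239D replicate 1 were most like each other. As no label states a pairing, the main model held no term for replicate number, which was used only in the block alternative. Coding sequences are the longest open reading frames of GENCODE release 29 transcripts, and promoters are from RefSeq.

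The members, lists and tests were chosen with earlier results of these data known. Named were all members, up to 6 called genes per list by smallest adjusted p, key undetected genes of the pathway, and the 3 genes closest in pattern to each AKR1C member. NFE2L2, ALB, CYP3A4 and SERPINA1 were named after their values were seen.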

Additional observations from a re-analysis of the deposited data

How the results depend on the processing

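The falls of AKR1C3 and HSD17B11 in S239D kept their call in all 18 alternatives of both comparisons, and SRD5A3 in all 18 against WT. HSD17B4 held in 16 of 18 in each, and was not called with TPM. Limma on log2(TPM + 1) and log2(TPM + 0.1) called 4351 and 4284 genes in S239D against WT (2526 higher and 1825 lower with the first, against 3195 and 3513 by edgeR), 2 and 3 in S239A against WT, and 4697 and 4642 in S239D against S239A. It called 2 enzyme genes in S239D against S239A with either pseudocount. The median of all genes in S239D against S239A moved to 0.10 with log2(TPM + 0.1). In S239A against WT edgeR called 1 gene, DESeq2 72, no filter on low counts 142, and both variants without their replicate 2 libraries 874; leaving out single libraries gave 1 to 8. The cause of these shifts was not tested.

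With the replicate number as a block, 7610 genes were called in S239D against S239A and 7275 in S239D against WT, and 6 in S239A against WT. It changed no call of the 8 members or of the 28 named list genes. Same-numbered libraries correlated at -0.003, 0.010 and -0.009 in S239D against WT and 0.025, 0.015 and 0.091 in S239A against WT, and not every library was most like its own number.

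Apart from HSD17B4 in TPM, signs turned for members that were not called. In S239D against WT, AKR1C1 was -0.18 and -0.22 with limma at the larger and smaller pseudocount. Merged rows sum the counts of several genes, so their signs are not those of a single member. They were -0.22 for AKR1C1 with AKR1C2 and -0.48 for all AKR1C. Libraries left out gave -0.30 to 0.38 for AKR1C1 and -0.0070 to 0.084 for HSD17B10. In S239A against WT, AKR1C1 was 0.013 at the smaller pseudocount, HSD17B4 was -0.44 with either, and AKR1C3 was -0.031 without both replicate 2 libraries. The merged row of all AKR1C was -0.078. Libraries left out gave -0.040 to 0.11 for AKR1C3 and -0.20 to 0.072 for HSD17B11. In S239D against S239A, AKR1C1 was -0.10 and -0.23 with limma, AKR1C2 was 0.0015 at the smaller pseudocount, and HSD17B4 was 0.012 and 0.011. The merged rows were 0.070 for AKR1C1 with AKR1C2 and -0.40 for all AKR1C. Libraries left out gave -0.25 to 0.17 for AKR1C2. HSD17B10 was called without S239A replicate 3 (0.34, adjusted p = 0.0243). AKR1C1, at 8.1 to 32.7 counts per library, is limited by depth.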
